A study of Mus musculus with 4 samples.

Results

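The genes described here encode the machinery that forms autophagosomes, the cathepsins, and the proton pump that acidifies the lysosome. They were chosen by symbol alone among the protein-coding genes of the deposited table, with no measured value in the rule. The rule takes the numbered Atg genes, the *Gabarap* and Map1lc3 genes, *Ulk1*, *Ulk2*, *Becn1*, *Sqstm1*, *Lamp1*, *Lamp2*, the cathepsin genes named Cts with 1 letter, and the genes whose symbols begin with Atp6v or Atp6ap. It finds 74 genes of 56748. Of these, 28 belong to the autophagy machinery, 2 encode lysosomal membrane proteins, 18 encode cathepsins and 25 encode subunits of the proton pump or proteins that attend it. The remaining one, *Atp6v1fnb*, matched by its symbol only, being named for its neighbour *Atp6v1f*.

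Lenses of mice aged 10 to 12 days were sequenced as poly(A) RNA in 4 libraries, 2 labelled Fsp1-cre;Pdgfrb+/D849V (mutant) and 2 labelled Fsp1-cre;Pdgfrb+/+ (control). The mutant mice carry a conditional knock-in of an overactive receptor for platelet-derived growth factor, PDGFRβ D849V, at the endogenous *Pdgfrb* locus, and cre is driven by the Fsp1 (*S100a4*) promoter. Per the study's methods the line is FVB/N with a Rosa-LSL-tdTomato reporter bred in, and the control pools mixed mice of genotype Pdgfrb+/D849V without cre, Pdgfrb+/+ without cre and Fsp1-cre;Pdgfrb+/+, which differs from the single control genotype in the labels. Each library pooled lenses of several mice, the sources used here give a number per group but not per library, and neither allele is specific to the lens. Since the replicates are pools, p-values measure the spread between pools, and the spread between animals was not seen. A bulk library also cannot tell fewer cells of a type from less RNA per cell.

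Autophagy encloses cytoplasm in a double membrane and delivers it to the lysosome. A kinase complex around ULK1 starts the process, BECN1 and ATG14 mark the membrane with a lipid, ATG2 and ATG9 supply lipid, and 2 conjugation systems attach the small proteins of the ATG8 family (the LC3 and GABARAP proteins) to the growing membrane. The lysosome digests what arrives with cathepsins, proteases that work in acid, and the vacuolar ATPase pumps the protons in. In the lens, differentiating fibre cells lose their nuclei and organelles while remaining alive, and lysosomal and autophagy genes are expressed in both epithelium and fibres. Transcript levels are reported here. They do not measure the flow of material through autophagosomes or the acidity of lysosomes.

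The libraries held 18561682 to 18878768 reads on genes, as recovered from the deposited values, and 58.6% to 62.9% of them lay on crystallin genes. Values are FPKM, reads scaled to gene length and library size. Fibre markers were at very high levels, with *Cryaa* at 66165 to 74239 FPKM, and the epithelial marker *Foxe3* was at 103 to 122 FPKM. The fibre gene *Lim2* was listed at 0 in all 4 libraries. It overlaps, over nearly its whole length, a second gene on the same strand, *Gm52993*, which was listed at 5.20 to 6.65 FPKM, so a listed 0 in this table does not show absence. *Pdgfrb* itself was at 2.36 and 2.16 FPKM in the mutant libraries against 2.25 and 1.79 FPKM in the controls, values that do not separate the mutant allele from the normal one. *Xist*, the X-inactivation RNA, was at 7.62 FPKM in mutant replicate 1 and 5.56 FPKM in control replicate 2 against 13.1 and 15.6 FPKM in the other mutant and control library, so a split between pools crosses the genotypes.

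Many lysosomal genes carry near their start sites the sequence CACGTG, which the transcription factor TFEB and its relatives bind, most strongly in the longer form TCACGTGA. The promoter windows of RefSeq (build GRCm38.p6, 250 bases before to 50 bases after each start) were searched for both. CACGTG reads the same on both strands, as does TCACGTGA, and every copy of the longer sequence is also a copy of the shorter. Windows were found for 58 of the 74 genes. CACGTG was present in 20.3% of 64 windows of these genes, against 7.15% of all 32851 windows in the table and 9.87% of the windows of genes tested here. TCACGTGA was present in 9.38% of them, against 0.974% of all windows and 1.80% of those of tested genes. By gene, 13 of 58 had CACGTG and 6 had TCACGTGA. They were shared across the roles, with the longer form in 2 cathepsins (*Ctsa* and *Ctsd*), 3 pump genes (*Atp6v0d1*, *Atp6v0e* and *Atp6v1a*) and 1 conjugation gene (*Atg3*). Stretches of 6 promoters before the start site are shown as examples, chosen after the search. They cover 4 of the 6 genes with the longer form, and *Lamp1* and *Atp6v0b*, with 4 and 2 copies of the shorter form. They are written in the direction of the gene, with each copy of the motif in capitals.
Ctsd (chr7:142387898-142387957, minus strand): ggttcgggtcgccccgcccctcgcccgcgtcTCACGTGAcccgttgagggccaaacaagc
Ctsa (chr2:164833713-164833772, plus strand): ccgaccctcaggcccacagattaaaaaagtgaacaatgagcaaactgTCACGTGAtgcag
Lamp1 (chr8:13159091-13159160, plus strand): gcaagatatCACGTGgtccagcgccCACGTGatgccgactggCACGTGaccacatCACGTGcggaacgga
Atp6v1a (chr16:44139360-44139419, minus strand): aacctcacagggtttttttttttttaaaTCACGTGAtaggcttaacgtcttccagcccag
Atg3 (chr16:45158719-45158778, plus strand): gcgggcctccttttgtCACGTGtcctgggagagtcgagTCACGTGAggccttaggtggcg
Atp6v0b (chr4:117887330-117887389, minus strand): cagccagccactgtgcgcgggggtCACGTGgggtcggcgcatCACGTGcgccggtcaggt
A match is a run of letters in a window and says nothing of binding in the lens, and members without one have none in this window only.

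Of the 74 genes, 61 had a mean of at least 0.1 FPKM over the 4 libraries and were tested. The others were near or at 0. A single read was found for *Ctse* and for *Ctsg*, 2 reads in all for *Atp6v1b1*, and *Atg9b*, *Atp6v0d2*, *Atp6v1e2*, *Atp6v1g3*, *Atp6ap1l*, *Atp6v1fnb*, *Ctsj*, *Ctsm*, *Ctsq* and *Ctsr* were listed at 0. These include genes known from other tissues, such as *Atp6v0d2* of osteoclasts, *Atp6v1b1* and *Atp6v1g3* of kidney, and the placental cathepsins *Ctsj*, *Ctsm*, *Ctsq* and *Ctsr*. The tested genes spanned 3 orders of magnitude, from 103 FPKM on average for *Gabarapl1* to 0.101 FPKM for *Atg4a-ps*. Among them, 18 had a mean of at least 10 FPKM, 29 lay between 1 and 10 FPKM, and 14 lay below 1 FPKM. The plot of levels by role shows that differences between genes of a role were far larger than differences between the libraries.

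**Figure D1:**
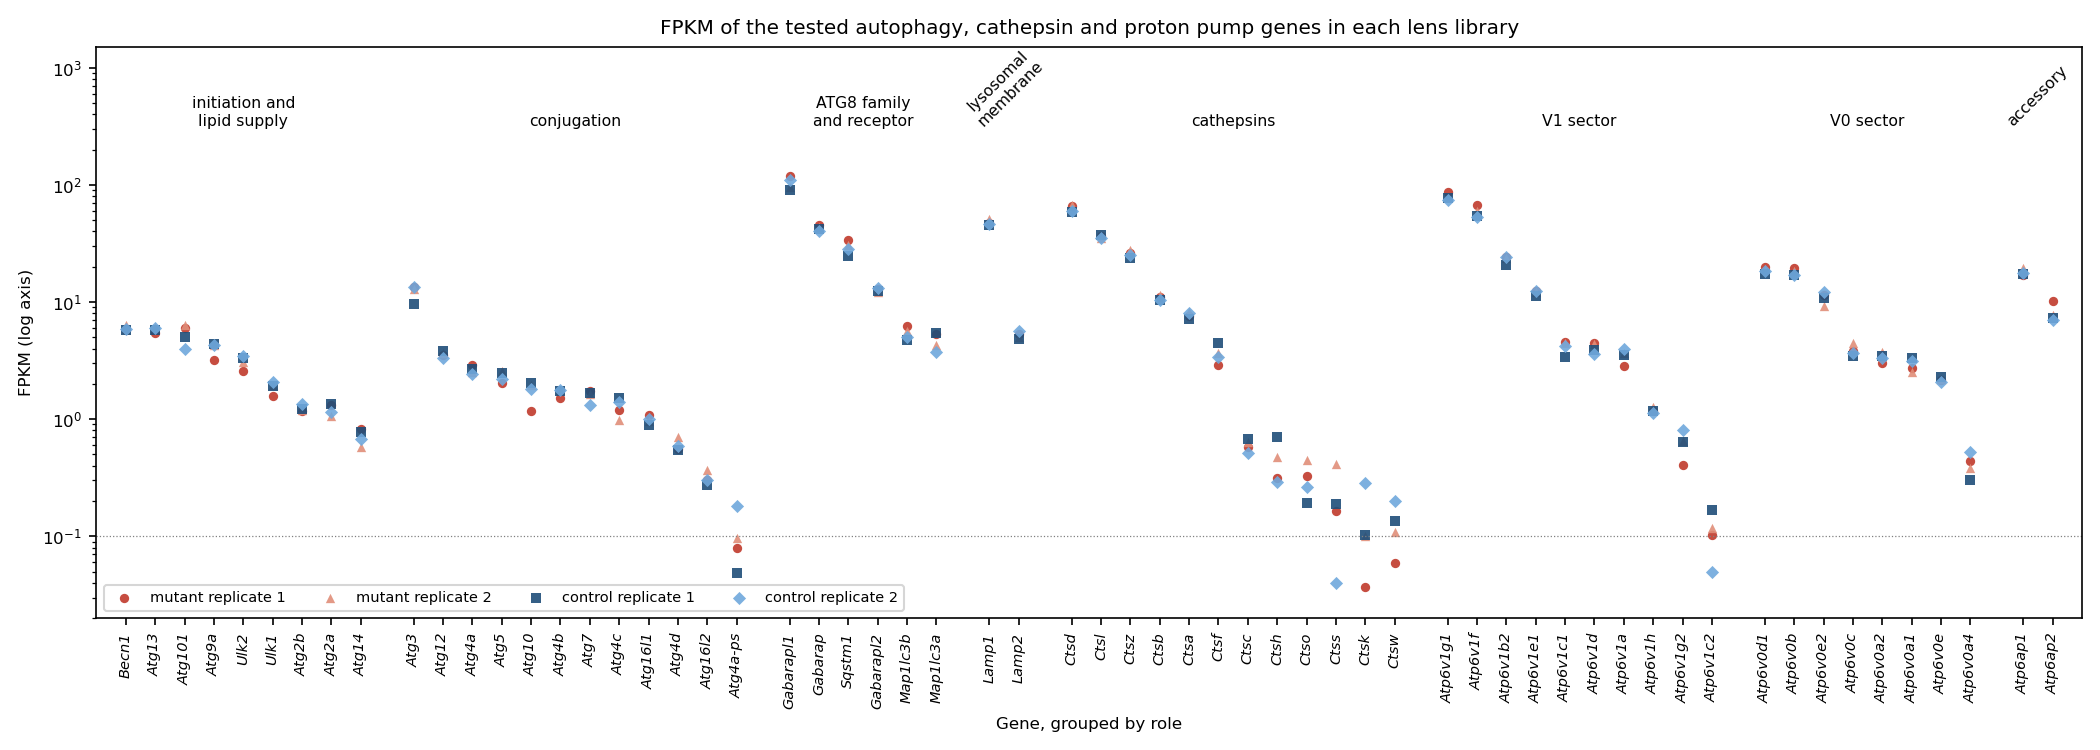
FPKM (log axis) of the 61 tested genes in the 4 libraries, grouped by role and ordered by mean level within each role. Each symbol is 1 library and the dotted line is the mean FPKM of 0.1 needed for testing. The 4 libraries lie close together for genes above 1 FPKM, and scatter for the least expressed cathepsins.

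No member differed between mutant and control lenses at an adjusted p under 0.05 (limma on log2 of FPKM plus 0.1, Benjamini-Hochberg over 15997 genes). The lowest adjusted p was 0.749, and of all genes tested 0.0375% passed. At an unadjusted p under 0.05, 1 of the 61 passed, *Atg101*, against 6.31% of all genes. In limma's voom on the recovered reads, 0 of 61 passed after adjustment (0.0875% of all genes) and 5 had an unadjusted p under 0.05 (7.43% of all genes). These 5 were *Atg101*, *Sqstm1*, *Map1lc3b* and *Atp6v1f*, higher in the mutant libraries, and *Atp6v0a1*, lower in them. A count of 0 leaves room for changes of modest size. The self-test of this design on simulated reads, with 2 libraries a group and a log2 change of 2, recovered 70.9% of the changed genes by limma and 98.5% by voom. Its dispersion was set and not estimated from these data, and changes were placed only in genes above a floor of reads. It gives no recovery rate for smaller changes, and the largest among the members was 0.873 in size. For members of at least 10 FPKM the 95% intervals of the log2 fold change (unadjusted) reached from -0.51 at the lowest to 0.67 at the highest. Between 1 and 10 FPKM they reached from -0.97 to 0.84, and below 1 FPKM from -2.27 to 2.39.

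The members leaned to the mutant side, by small amounts. The log2 fold change was above 0 for 37 of 61 (60.7%), against 50.7% of all genes, and its median was 0.064 against 0.004. The median of the members was 0.033 when scaled to total reads, where that of all genes was -0.024, and 0.037 without mutant replicate 2. Both mutant libraries lay above both controls for 19 of the 61, where 18.2% of all genes did, and below both for 6 of the 61, where 18.3% of all genes did. Among these 6, *Ctsk* and *Ctsw* reached the mean of 0.1 FPKM needed for testing only through their control values. Their mutant means were 0.0692 and 0.0839 FPKM, so that they lay below is partly built into the filter. The lean was in the abundant members. Of the 18 genes with a mean of at least 10 FPKM, 15 were higher in the mutant libraries, 10 without overlap between the groups, and 0 lay below without overlap. Without control replicate 1, 12 of the 18 were higher and their median log2 fold change was 0.071. Abundant genes in general leaned the same way, since of the 1669 tested genes of that level 65.5% were higher, 28.5% lay above without overlap and 12.9% below. With all 4 libraries the median log2 fold change was 0.111 for these members and 0.066 for all genes of that level. Between 1 and 10 FPKM the members divided 14 to 15, with a median of -0.020. The shares are descriptions over genes that were not measured independently of each other, and they were not tested.

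**Figure D2:**
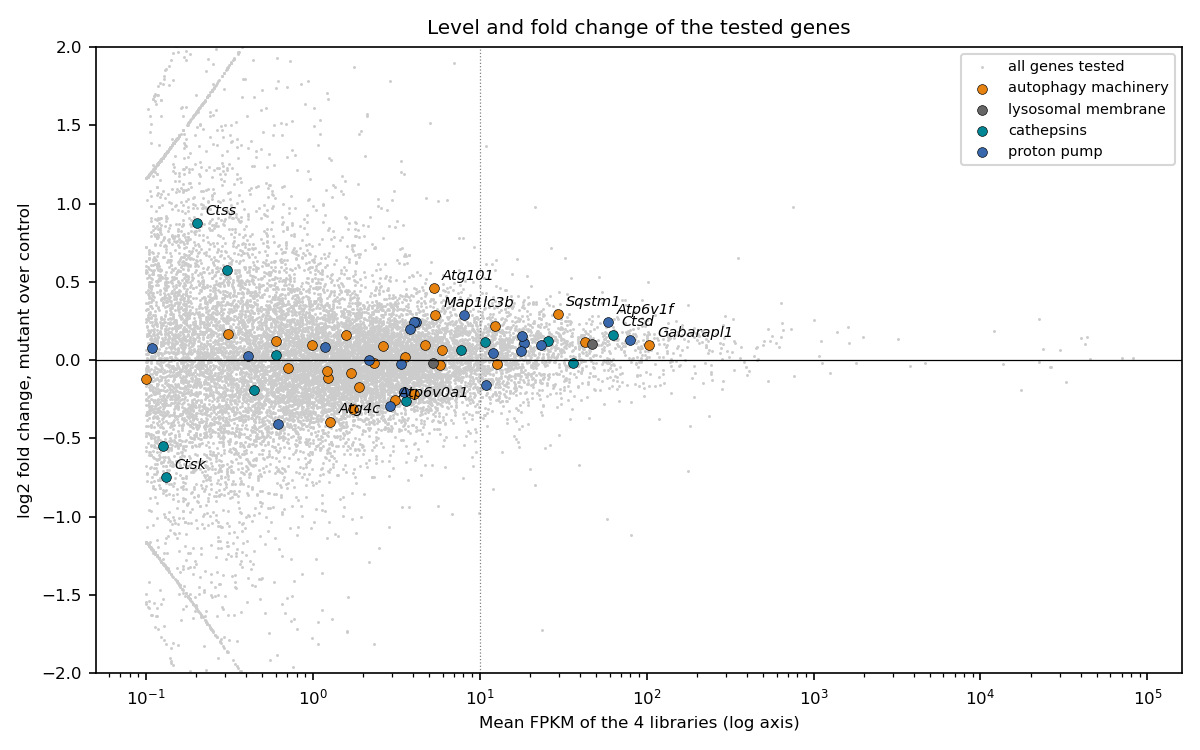
Log2 fold change (mutant over control) against mean FPKM (log axis) for the 15997 tested genes in grey and the 61 members in colour by group. The dotted line is 10 FPKM, and 218 genes with a log2 fold change beyond 2 in either direction are outside the axis. The members lie inside the cloud of all genes, and right of the line 15 of 18 are above 0.

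Initiation and lipid supply were represented by 9 tested genes at low to moderate levels, 2 of them higher and 7 lower in the mutant libraries. *Becn1*, the scaffold of the lipid kinase complex of autophagy, was the most abundant, at 5.80 and 6.34 FPKM in the mutant libraries and 5.77 and 5.82 FPKM in the controls. *Atg13*, a partner of ULK1, followed at 5.47 and 6.06 FPKM against 5.73 and 6.04 FPKM. Neither pair of groups separated. *Atg101*, which stabilises ATG13 in the same complex, is 1597 bases of exon on chromosome 15 (mm39, 101182153 to 101188826). It was at 5.94 and 6.36 FPKM in the mutant libraries and at 4.99 and 3.94 FPKM in the controls. Both mutant values were above both control values, with control replicate 2 the lowest. The log2 fold change was 0.46 (SE 0.15, unadjusted p = 0.0253, adjusted p = 0.749, limma). It stayed above 0 with any single library left out, between 0.30 and 0.63. The kinase genes had lower mean values in the mutant libraries. *Ulk2* was at 2.57 and 3.10 FPKM in the mutant libraries and at 3.32 and 3.45 FPKM in the controls, a log2 fold change of -0.25 (adjusted p = 0.810, limma) without overlap, and between -0.38 and -0.12 with any single library left out. *Ulk1* was at 1.58 and 1.97 FPKM against 1.93 and 2.07 FPKM, which overlap. *Ulk2* made up 61.2% to 63.2% of the summed FPKM of the *Ulk1* and *Ulk2* genes in every library. The lipid carriers *Atg2a* and *Atg2b*, the scramblase gene *Atg9a* and the adaptor *Atg14* had log2 fold changes from -0.21 to -0.05.

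The conjugation systems join ATG12 to ATG5 and ATG8 proteins to a lipid. All 12 of their genes were tested, 7 were higher and 5 lower, and for most the groups overlapped. *Atg3*, the enzyme that hands ATG8 to its lipid, was the most abundant, at 13.4 and 13.0 FPKM in the mutant libraries and 9.55 and 13.5 FPKM in the controls. Its mean difference came from control replicate 1, the only low value, and without that library the log2 fold change was -0.03 in place of 0.22. *Atg12* was at 3.31 to 3.79 FPKM, *Atg5* at 2.05 to 2.56 FPKM, and *Atg7*, which activates both small proteins, at 1.33 to 1.73 FPKM. In none of these did the groups separate.

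The ATG4 proteases cut the ATG8 proteins before they are attached and release them later. *Atg4a* held the largest share of the family's summed FPKM in each library, 39.1% to 46.9%, followed by *Atg4b* with 24.8% to 29.5%, *Atg4c* with 16.5% to 23.4% and *Atg4d* with 8.46% to 11.7%. By reads *Atg4b* exceeded *Atg4a*, with 225 to 288 against 134 to 156, on annotated lengths of 8278 and 3011 bases. Their order in FPKM therefore rests on those lengths. *Atg4a* was at 2.89 and 2.54 FPKM in the mutant libraries and 2.66 and 2.41 FPKM in the controls. The table also lists *Atg4a-ps*, with 2 to 7 reads per library, whose transcripts share 78.0% of their 31-base words with *Atg4a*, so reads of the pair could be assigned to either. *Atg4c* was at 1.19 and 0.991 FPKM in the mutant libraries and 1.5 and 1.41 FPKM in the controls. Both mutant values were below both controls, and the log2 fold change of -0.39 had an adjusted p of 0.806 (limma, unadjusted p = 0.0616). *Atg4b* was at 1.52 to 1.78 FPKM and *Atg4d* at 0.545 to 0.703 FPKM, with overlapping groups. Of the scaffold genes that place the ATG5 complex on the membrane, *Atg16l1* made up 72.2% to 78.1% of the sum with *Atg16l2*.

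The ATG8 family was dominated by the GABARAP branch in all 4 libraries. *Gabarapl1* supplied 58.2% to 63.8% of the family's summed FPKM, *Gabarap* 23.6% to 27.1%, *Gabarapl2* 6.81% to 8.09%, *Map1lc3b* 2.89% to 3.50% and *Map1lc3a* 2.16% to 3.49%. The first 3 therefore exceeded the LC3 genes in FPKM in every library, while *Map1lc3a* and *Map1lc3b* changed places between libraries. By reads *Map1lc3b* exceeded *Gabarapl2*, with 688 to 838 against 534 to 565, on annotated lengths of 7517 and 2325 bases. Their order in FPKM therefore rests on those lengths. *Gabarapl1* was the most abundant member of all by FPKM, above 98.9% of tested genes on average, at 119 and 94.9 FPKM in the mutant libraries and 90.0 and 110 FPKM in the controls. The groups overlapped, and 25.2% of the 31-base words of *Gabarapl1* are also found in an antisense transcript, *1700101I11Rik*, at 5.90 FPKM. Whether the counting used strand is not given in the sources used here. *Gabarap* was at 45.7 and 43.6 FPKM against 41.9 and 40.6 FPKM, a log2 fold change of 0.11 without overlap. *Gabarapl2* was at 12.9 and 12.2 FPKM against 12.5 and 13.1 FPKM, and *Map1lc3a* at 5.37 and 4.28 FPKM against 5.40 and 3.72 FPKM, both with overlap.

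*Map1lc3b*, the gene of the LC3 protein most used to follow autophagosomes, was at 6.25 and 5.62 FPKM in the mutant libraries and 4.71 and 4.98 FPKM in the controls. Both mutant values were higher, with a log2 fold change of 0.29 (SE 0.11, unadjusted p = 0.0508, adjusted p = 0.788, limma). *Sqstm1* encodes p62, a receptor that ties ubiquitin-tagged cargo to ATG8 proteins and is itself degraded with its cargo. It was at 34.1 and 30.6 FPKM in the mutant libraries and 24.5 and 28.4 FPKM in the controls. Its log2 fold change was 0.30 (SE 0.12, unadjusted p = 0.0512, adjusted p = 0.788, limma), and with any single library left out it lay between 0.19 and 0.40. In both genes the difference exceeded the spread within each group, and neither passed the test over all genes. *Sqstm1* lies on chromosome 11 (mm39, 50090193 to 50101654) and *Map1lc3b* on chromosome 8 (122317100 to 122325499).

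**Figure D3:**
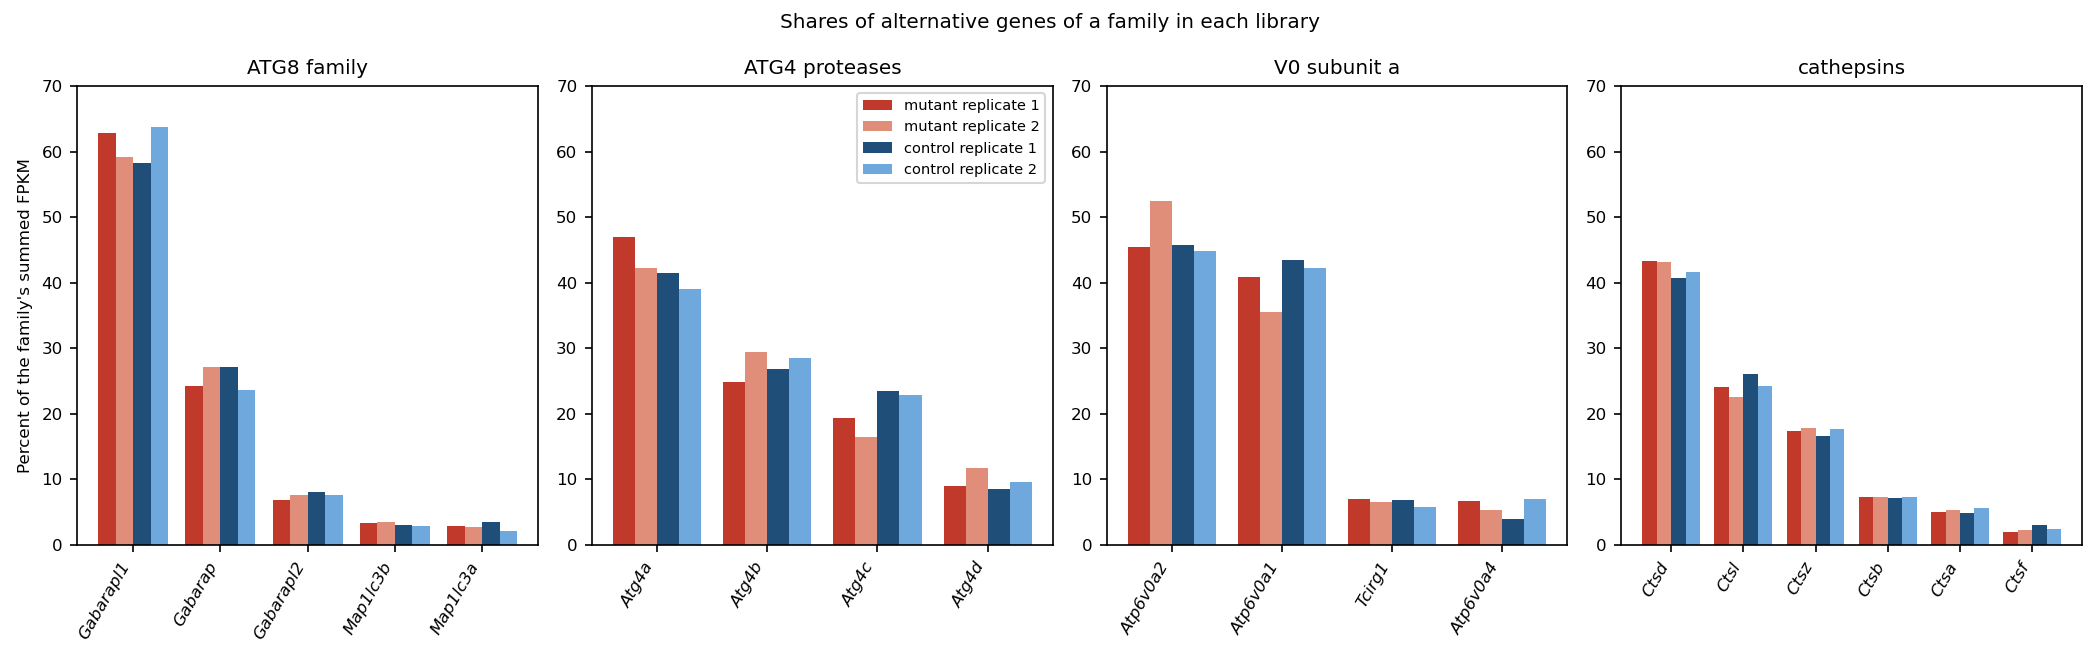
Percent of the summed FPKM of a family held by each of its genes in the 4 libraries, for genes with a mean of at least 1%. Bars are single libraries in the order mutant 1 and 2, control 1 and 2. The order of shares is the same in every library for the first 3 ATG8 genes and for the first 3 cathepsins. FPKM divides by annotated length, so the order of genes within a family rests on those lengths. *Atp6v0a1* has a lower share in both mutant libraries (40.9% and 35.6%) than in both controls (43.5% and 42.2%).

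*Lamp1* and *Lamp2* encode the abundant glycoproteins that line the lysosomal membrane. *Lamp1* was at 47.2 and 50.9 FPKM in the mutant libraries and 45.4 and 45.9 FPKM in the controls, a log2 fold change of 0.10 (adjusted p = 0.810, limma) without overlap. *Lamp2* was at 5.30 and 5.05 FPKM against 4.83 and 5.69 FPKM. *Lamp1* made up 89.0% to 91.0% of the pair's sum in each library.

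Of 18 cathepsin genes, 12 were tested, with 7 higher and 5 lower in the mutant libraries. *Ctsd*, the main aspartic protease of the lysosome, held 40.7% to 43.3% of the cathepsins' summed FPKM, *Ctsl* 22.5% to 26.1% and *Ctsz* 16.6% to 17.8%. By reads *Ctsl* led *Ctsd* in every library, with 4183 to 4747 against 2591 to 3092. FPKM divides by annotated length, 6489 bases for *Ctsl* and 2351 for *Ctsd*, so the order of their shares rests on those lengths. *Ctsd* was at 65.5 and 67.2 FPKM in the mutant libraries and 58.6 and 59.8 FPKM in the controls. Both mutant values were above both controls, and the log2 fold change of 0.16 (SE 0.08) had an adjusted p of 0.810 (limma, unadjusted p = 0.10). *Ctsl*, a cysteine protease, was at 36.5 and 35.0 FPKM against 37.6 and 35.0 FPKM and showed no separation, with a 95% interval of the log2 fold change from -0.25 to 0.21. *Ctsz*, a carboxypeptidase, was at 26.3 and 27.6 FPKM against 23.9 and 25.4 FPKM, and *Ctsb*, also a cysteine protease, at 11.1 and 11.5 FPKM against 10.4 and 10.4 FPKM. Both lay above the controls without overlap, by log2 fold changes of 0.13 and 0.12. *Ctsb* overlaps *Fdft1* on the opposite strand over 774 bases, and *Fdft1* was at 12.0 FPKM. *Ctsa*, a carboxypeptidase that also protects other lysosomal enzymes, was at 7.12 to 8.27 FPKM and *Ctsf* at 2.88 to 4.45 FPKM, each with overlap.

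The other 6 tested cathepsins were all under 1 FPKM. *Ctsc* ran from 0.514 to 0.682 FPKM, *Ctsh* from 0.289 to 0.697 FPKM and *Ctso* from 0.191 to 0.449 FPKM. *Ctso* alone of these was higher in both mutant libraries, at 0.328 and 0.449 FPKM against 0.191 and 0.265 FPKM (log2 fold change 0.57, adjusted p = 0.810, limma). *Ctss*, a protease typical of macrophages and other antigen-presenting cells, rested on 4 and 11 reads in the mutant libraries against 5 and 1 in the controls. *Ctsk*, known from osteoclasts, had 1 and 3 reads against 3 and 8, and *Ctsw*, known from lymphocytes, had 2 and 4 reads against 5 and 7. *Ctsk* and *Ctsw* passed the filter only through their control values, so their direction is partly built in. At such counts differences of several fold were not detectable. The 10 markers of macrophages held 71 and 87 reads in all in the mutant libraries, against 36 and 25 in the controls. Their summed level was 2.51 and 2.69 FPKM against 1.15 and 0.619 FPKM. The 5 that passed the filter were higher in both mutant libraries than in both controls, as were 18.2% of all genes. Of these, *C1qb* and *C1qc* passed only through their mutant values, with control means of 0.0722 and 0.0266 FPKM. That they were higher is therefore partly built into the filter. Under the filter, *Csf1r*, *Cx3cr1* and *Adgre1* also lay above the controls, and *Ptprc* and *Mrc1* overlapped. The defining genes were close to 0, with *Csf1r* at 0.0470 to 0.0973 FPKM, *Adgre1* at 0.0158 and 0.0173 FPKM in the mutant libraries and 0 in the controls, and *Ptprc* at 0 to 0.00613 FPKM. The lowest adjusted p of the list was 0.737 (limma). The summed level of all cathepsins was 151 and 155 FPKM in the mutant libraries against 144 and 144 FPKM, and the part of macrophages in the cathepsin values was not tested.

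The vacuolar ATPase has a V1 sector, which splits ATP outside the lysosome, and a V0 sector, which carries protons through the membrane. Of 25 genes, 20 were tested, and 15 were higher and 5 lower in the mutant libraries, where 50.7% of all genes were higher. Both mutant libraries lay above both controls for 9 of the 20 and below for 1, where 18.2% and 18.3% of all genes did, and 28.5% and 12.9% of genes of at least 10 FPKM. Summed over the genes, the pump was at 295 and 275 FPKM in the mutant libraries against 259 and 263 FPKM in the controls. The sum is weighted to its most abundant genes, and *Atp6v1g1* alone held 29.1% of the pump's mean FPKM. Mutant and control means were 82.9 and 75.8 FPKM for *Atp6v1g1* and 63.7 and 53.7 FPKM for *Atp6v1f*, the next most abundant. The median log2 fold change was 0.079.

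In the V1 sector 8 of 10 tested genes were higher in the mutant libraries, 5 without overlap. Over all genes tested 50.7% were higher and 18.2% lay above without overlap. Over genes of at least 10 FPKM the shares were 65.5% and 28.5%. The V1 counts were not tested. *Atp6v1g1*, the stalk subunit G, was at 87.3 and 78.4 FPKM in the mutant libraries and 77.1 and 74.5 FPKM in the controls. It shares 24.0% of its 31-base words with the pseudogene *Gm13453*, which had 35 to 56 reads. *Atp6v1f*, subunit F of the central stalk, lies on chromosome 6 (mm39, 29467717 to 29470511) and was at 67.4 and 59.9 FPKM against 54.4 and 53.0 FPKM. Both mutant values were above both controls, with a log2 fold change of 0.24 (SE 0.10, unadjusted p = 0.0539, adjusted p = 0.798, limma), and it lay between 0.16 and 0.33 with any single library left out. *Atp6v1b2*, which alternates with the catalytic subunit A in the ATP-binding ring, was at 24.0 and 23.9 FPKM against 20.8 and 24.0 FPKM, where control replicate 1 was the only low value. The catalytic subunit gene *Atp6v1a* was at 2.82 and 3.68 FPKM against 3.51 and 3.98 FPKM, with overlap and a log2 fold change of -0.21. *Atp6v1d* was at 4.49 and 4.35 FPKM against 3.88 and 3.56 FPKM, and *Atp6v1c1* at 4.52 and 4.43 FPKM against 3.38 and 4.18 FPKM, both higher without overlap (adjusted p = 0.809 and 0.810, limma).

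Subunits of this one complex differed widely in transcript level, and the order was nearly fixed. With the alternative genes of a subunit added, G, F, B and E led in that order in every library, and H was last. A, C and D exchanged places between libraries, so their order is not set by these data. The sum for G exceeded A by 31.1 and 21.5 times in the mutant libraries and by 22.2 and 18.9 times in the controls. The sum for B, which is present in the ring in the same number as A, exceeded A by 5.94 to 8.51 times. FPKM divides by the length of all annotated exons of a gene, which was 1135 bases for *Atp6v1g1*, 5305 bases for *Atp6v1b2* and 6044 bases for *Atp6v1a*, so ratios between genes rest on the annotated lengths.

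In the V0 sector 5 of 8 tested genes were higher and 3 lower. *Atp6v0d1*, which joins the sectors, was at 19.9 and 18.6 FPKM in the mutant libraries and 17.2 and 18.5 FPKM in the controls. *Atp6v0b*, a subunit of the proton-carrying ring, was at 19.4 and 18.4 FPKM against 16.9 and 17.1 FPKM. Both were higher without overlap, by log2 fold changes of 0.11 and 0.15 (adjusted p = 0.811 and 0.810, limma). *Atp6v0e2* was at 11.4 and 9.27 FPKM against 10.8 and 12.1 FPKM, with overlap. *Atp6v0c*, the main ring subunit, was listed at 3.78 and 4.47 FPKM against 3.46 and 3.69 FPKM, which is low beside its partners. Its pseudogene *Atp6v0c-ps2* shares 92.9% of its own 31-base words with *Atp6v0c* and was listed at 38.2 to 44.7 FPKM. The pseudogene had 345 to 383 reads against 228 to 296 reads for *Atp6v0c*, so the value of *Atp6v0c* is uncertain. Reads of the pair added up to 576 and 667 in the mutant libraries and 573 and 613 in the controls, which overlap, whereas *Atp6v0c* alone did not.

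Subunit a of V0 exists in 4 forms that direct the pump to different membranes. *Atp6v0a1* was at 2.71 and 2.52 FPKM in the mutant libraries and 3.30 and 3.14 FPKM in the controls. Both mutant values were below both controls, and the log2 fold change was -0.29 (SE 0.12, unadjusted p = 0.0581, adjusted p = 0.805, limma). It was the one pump gene lower without overlap. *Atp6v0a2* was at 3.01 and 3.71 FPKM against 3.47 and 3.35 FPKM, and *Atp6v0a4* at 0.300 to 0.524 FPKM. The remaining form, *Tcirg1*, lies outside the symbol rule and was at 0.436 to 0.525 FPKM. The shares of *Atp6v0a1* and *Atp6v0a2* were 35.6% to 43.5% and 44.9% to 52.4% of the sum. Other alternative genes were one-sided in every library, with *Atp6v1c1* at 95.3% to 98.8% over *Atp6v1c2*, *Atp6v1g1* at 98.9% to 99.5% over *Atp6v1g2*, and *Atp6v0e2* at 80.7% to 85.5% over *Atp6v0e*. *Atp6ap1* and *Atp6ap2* encode accessory membrane proteins of the pump. *Atp6ap1* was at 17.1 and 19.3 FPKM against 17.4 and 17.6 FPKM. *Atp6ap2* was at 10.1 and 7.71 FPKM against 7.35 and 7.07 FPKM, higher without overlap, and without mutant replicate 1 its log2 fold change was 0.10 in place of 0.29.

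**Figure D4:**
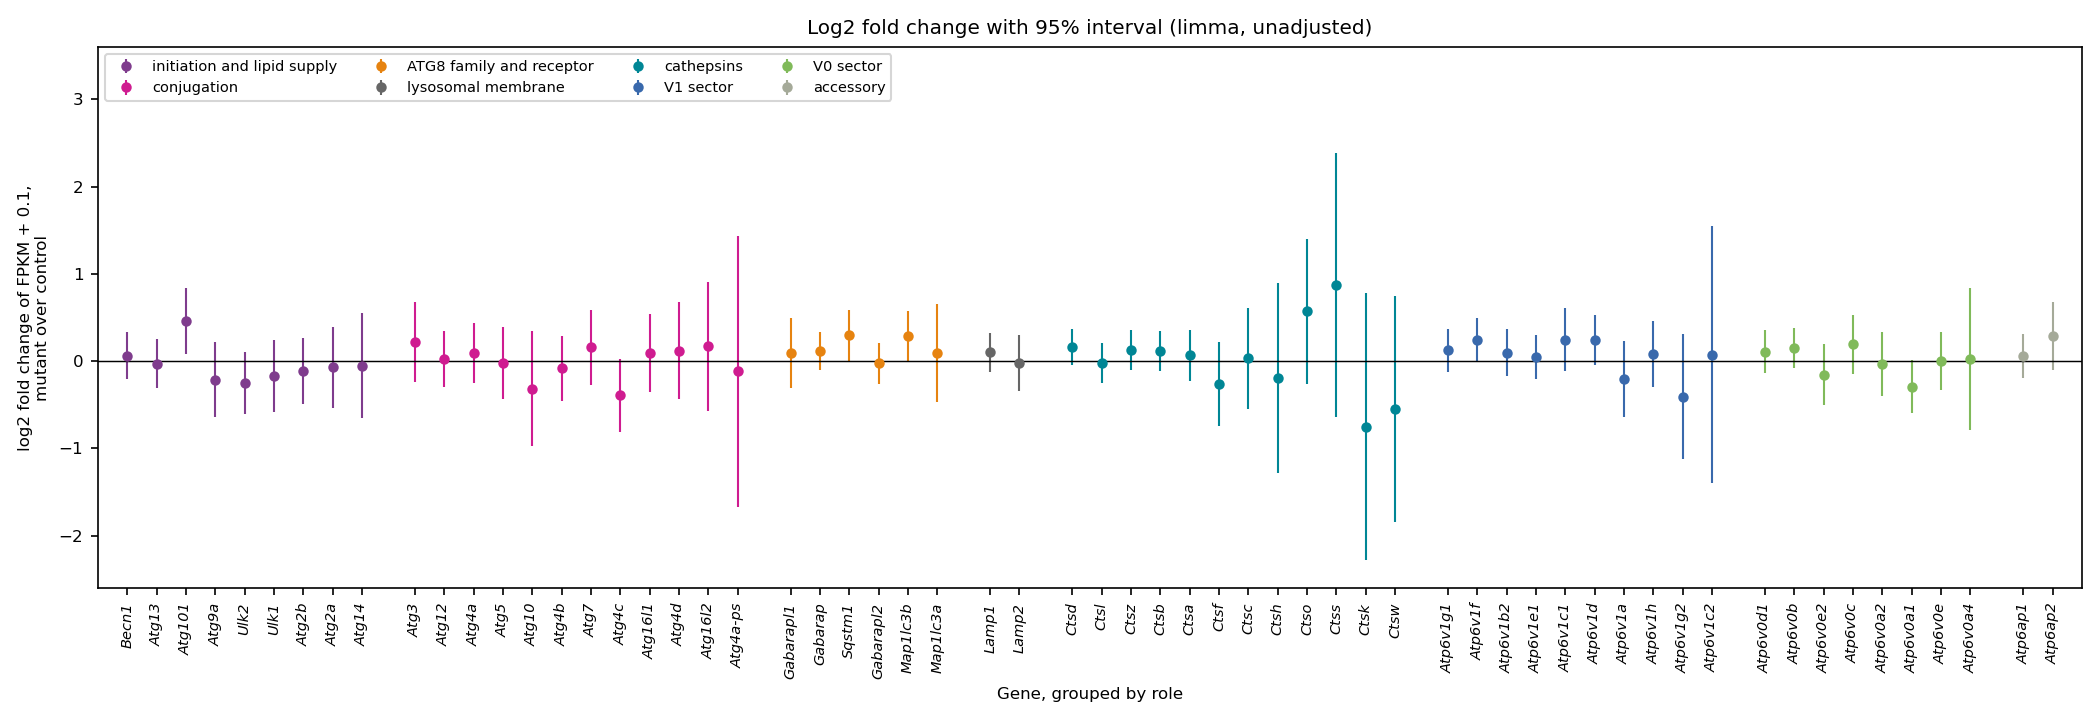
Log2 fold change (mutant over control) of the 61 tested genes with unadjusted 95% intervals from limma, in the order of the plot of levels. *Atg101* is the one gene whose interval excludes 0, and the widest intervals belong to the least expressed genes.

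Further genes of the pathway, listed outside the symbol rule, gave the same picture of small differences. Of 88 found, 87 were tested, 50 were higher and 37 lower in the mutant libraries, and none was called (the lowest adjusted p was 0.363, limma). An unadjusted p under 0.05 was reached by 3 of the 87, all higher, where 6.31% of all genes reached it. *Lamtor5*, a subunit of the scaffold that anchors nutrient sensing to the lysosome, was at 15.1 and 13.5 FPKM in the mutant libraries and 9.19 and 9.39 FPKM in the controls. This was a log2 fold change of 0.61 (SE 0.10, unadjusted p = 0.00175, adjusted p = 0.363). *Bnip3*, a receptor on mitochondria that recruits ATG8 proteins, was at 17.2 and 16.0 FPKM against 11.7 and 12.5 FPKM, a log2 fold change of 0.45 (limma, unadjusted p = 0.00534, adjusted p = 0.580). *Optn*, a receptor for ubiquitin-tagged cargo, was at 12.3 and 13.1 FPKM against 9.17 and 10.9 FPKM, a log2 fold change of 0.34 (limma, unadjusted p = 0.0361, adjusted p = 0.774). With any single library left out it lay between 0.22 and 0.47. In all 3 both mutant values exceeded both control values. By role, 7 of 8 cargo receptor genes were higher, 4 without overlap (18.2% of all genes lay above without overlap). Of 10 genes of autophagosome traffic and fusion, 7 were lower, 5 without overlap (18.3% of all genes lay below). These counts over few genes were not tested, and a difference between the roles was not tested either. The most abundant genes of the list were *Cst3*, the secreted cathepsin inhibitor cystatin C, at 225 and 195 FPKM against 191 and 192 FPKM, *Lgmn*, the protease that processes cathepsins, at 74.2 to 89.6 FPKM, and *Laptm4a*, a lysosomal membrane protein, at 52.1 to 57.5 FPKM. None of the 3 passed the test.

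Other cell types gave low values, with differences in both directions. All 5 endothelial markers had lower means in the mutant libraries, with overlap. Of these, *Emcn* passed the filter only through its control values, with a mutant mean of 0.0910 FPKM. Its direction is therefore partly built into the filter. Of 6 pericyte and fibroblast markers 4 were tested, 3 of them higher and 1 lower, and their sum was 17.1 and 14.8 FPKM in the mutant libraries against 15.2 and 16.2 FPKM in the controls. *Rgs5* was lower without overlap, at 3.43 and 2.47 FPKM against 4.60 and 4.30 FPKM. *Col1a1* was higher without overlap, at 0.239 and 0.311 FPKM against 0.0470 and 0.0744 FPKM, while *Acta2*, at 12.6 and 11.0 FPKM against 9.79 and 11.2 FPKM, and *Col1a2* overlapped. *Col1a1* passed the filter only through its mutant values, with a control mean of 0.0607 FPKM. That it was higher is therefore partly built into the filter. The part of these differences in the values above was not tested.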

How the data were processed

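The authors aligned the reads with Hisat2 v2.0.5, counted them per gene with featureCounts v1.5.0-p3 on build mm39 and deposited FPKM of 56748 genes in 4 libraries. Multiplied by gene length, 100.0% of the deposited FPKM above 0 were whole multiples of the value of 1 read, within a tolerance of 0.1 reads, which gave 18561682 to 18878768 reads per library. Low genes therefore rest on few reads. Strandedness is not given in the sources used here.

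The members and the lists of other pathway genes and markers were chosen with earlier results of these data known. Libraries were rescaled by median ratios (1.01 in each). After a pseudocount of 0.1 and log2 transformation, limma 3.58.1 (R 4.3.3, lmFit and eBayes with trend) was fitted to the 15997 genes whose FPKM averaged 0.1 or more, and p-values were adjusted over all of them by Benjamini-Hochberg. Fold changes on this scale understate changes of low genes. Voom on the recovered reads was the alternative count test, where 14 genes had an adjusted p under 0.05 against 6 by the main test. Other pseudocounts, filters, scalings, a covariate for *Xist*, a replicate block and leaving out each library were also tried. In a simulation over 15577 genes, where 199 differed by a log2 fold change of 2, limma called 35 unchanged genes and voom 0.

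Named members are those with an unadjusted p under 0.05, the 3 most abundant of each role, the ATG8 and Atg4 families, and the cathepsins and alternative pump genes that passed the filter. Named non-members are pathway genes with an unadjusted p under 0.05, the 3 most abundant, and markers. *Ulk1*, *Ulk2*, *Atg2a*, *Atg2b*, *Atg9a*, *Atg14*, *Atg5*, *Atg7*, *Atg16l1*, *Atg16l2*, *Atp6v1a*, *Atp6v1d*, *Atp6v0c*, *Pdgfrb*, *Xist*, *Tcirg1* and the genes that share sequence with members were added after their values were seen. Shared sequence is the percent of 31-base words of a gene's GRCm38 transcripts found in another gene. Promoters came from RefSeq (GRCm38.p6) and were matched by symbol. Scripts ran in Python 3.11.15 with numpy 2.4.6, pandas 2.3.3 and matplotlib 3.10.9.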

Additional observations from a re-analysis of the deposited data

How the results depend on the processing

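No member passed an adjusted p of 0.05 under any of the 14 alternatives, so that count was 0 throughout. The number of members with an unadjusted p under 0.05, 1 in the fit reported, was 2 with a covariate for *Xist*, 2 with a filter of 1 FPKM, 2 with a pseudocount of 0.01 and 2 with a pseudocount of 1. It was 0 without a mean-variance trend, 5 with no filter and 5 with voom, and 0 to 6 with single libraries left out. Leaving out mutant replicate 1 gave 0 and leaving out mutant replicate 2 gave 6, and *Atg101* was not among the 6. The group with 1 library left was assumed to vary like the other. Under scaling to total reads the single gene was *Sqstm1* in place of *Atg101*. The median log2 fold change of the proton pump genes, 0.079 in the fit reported, was 0.099 with a filter of 1 FPKM, 0.051 with a pseudocount of 1, 0.054 when scaled to total reads, and 0.067 to 0.110 with single libraries left out. Scaling to total reads shifted the median of all genes to -0.024 and that of the autophagy genes to -0.007. With the replicate number as a block, 0 members passed after adjustment and 1 without it, and the samples share only a number (correlation of same-numbered deviations -0.0051). Directions of 9 to 11 members turned with a single library left out, among them *Atg10* (-0.31 in the fit reported) without mutant replicate 1 and *Atg3* (0.22) without control replicate 1, and those of *Atp6v0e* and *Atg12* under other scalings. Reads per gene limit what can be seen of the least expressed members.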
